A study of Mus musculus with 6 samples.

Results

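The 60 genes described here showed the most consistent excess of transcript in FGF8-pretreated over untreated brown fat cells across differentiation, chosen from 13256 genes whose mean normalized count was 20 or more, out of 26264 genes listed. Each count was scaled by its library's median-of-ratios size factor. Genes were ranked by the smallest of the 3 log2 fold changes of days 0, 3 and 7, each with a pseudocount of 1, and the 60 highest were taken without Atp2a3, Acot2, Soat2, Car9 and Ndufa4l2, which the rule sets aside. The differences between FGF8 and untreated libraries therefore chose the genes, and they are given as a description, with no test and nothing read from them. All 60 passed the filter on the mean by construction.

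The cells were immortalized brown preadipocytes, a line made from the stromal vascular fraction of interscapular brown fat of Bl6N wild-type mice with SV40 large T antigen. They were exposed to 5.5 nM FGF8 for 48 h or left untreated, and all were then differentiated in the same way, with 2 days of induction medium followed by differentiation medium. The 6 libraries are untreated D0, D3 and D7 and FGF8 D0, D3 and D7, with 1 library per condition. D0 was harvested directly after the pretreatment. The study counts its last harvest as 9 days after the end of FGF treatment, and the label D7 is taken here to mean that harvest. With no replicates, no p-value is given, and every interval is at the 95% level, by the exact Clopper-Pearson method for 2 counts, and covers counting error only. The growth text that accompanies the samples describes primary white cells, whereas the titles and the design describe this brown line.

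FGF8 is a paracrine growth factor that acts on preadipocytes through FGF receptor 1 and the ERK cascade. The transcription factor ATF4 is translated when the integrated stress response is active or when growth signals raise the demand for amino acids, and it induces genes for amino acid synthesis, one-carbon metabolism and glutathione turnover. Brown adipocyte differentiation is driven by PPARG and switches on lipid storage, fatty acid oxidation and thermogenesis, with PPARA among the factors that accompany the mature state.

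The libraries held between 16403254 and 38551551 counts. The adipocyte part of the label was checked with markers, which do not tell brown from white cells. The 5 adipocyte markers summed to between 236.8 and 308.5 normalized counts at day 0 and to between 226863 and 451173 at days 3 and 7. The 8 preadipocyte markers were all counted in every library, at a sum between 315493 and 337762 in the untreated and between 104975 and 120578 in the FGF8 libraries. At day 0, however, 3 of the 8 were higher after FGF8. The day 0 libraries stood apart in 1 respect. Xist, the RNA of the inactive X chromosome, had 3716 normalized counts at day 0 without FGF8 and 7473 with it, but between 7.02 and 21.1 in the other 4 libraries, while 4 Y-linked genes were counted in all 6. Values that rest on day 0 are therefore also given without it where that is possible. In bulk RNA, fewer cells of a type and less RNA per cell cannot be told apart.

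Among the 60 genes, 51 are protein-coding and 9 are long non-coding RNAs, a class that makes up 3.97% of the 12933 tested genes found in the annotation. The genes lay on 18 chromosomes, with at most 9 on 1 chromosome (chromosome 2). Coordinates refer to GRCm39. Their mean level over the 6 libraries ran from 20.4 normalized counts to 12713, with a median of 206 against 849 for all genes tested. The counts behind the values differ with the day. Both libraries of a day held more than 50 counts for 17 genes (D0), 27 (D3) and 47 (D7).

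Promoter sequences, from 250 bases before to 50 after a RefSeq start, were found for 48 of the 60 genes in the RefSeq table (GRCm38.p6). Those shown, chosen after the matches were seen, carry a motif of a stress, circadian or hypoxia factor in capitals and were placed in GRCm39 by an exact match. The promoter of Upp1, which also held the hypoxia response element core, is not shown. The Chac1 promoter (chr2:119181473-119181772, plus strand) holds the C/EBP-ATF element on its other strand, 193 bases upstream of the start. The Ciart promoter (chr3:95789491-95789790, minus strand) holds the E-box CACGTG at 3 places, 116, 58 and 44 bases upstream. The Ero1a promoter (chr14:45555980-45556279, minus strand) holds the hypoxia response element core once on its other strand, 63 bases upstream. These distances refer to the RefSeq start. In all 3 genes the marked bases lie inside the wider gene bounds of the GENCODE annotation, from which the gene coordinates in this text come.
Chac1: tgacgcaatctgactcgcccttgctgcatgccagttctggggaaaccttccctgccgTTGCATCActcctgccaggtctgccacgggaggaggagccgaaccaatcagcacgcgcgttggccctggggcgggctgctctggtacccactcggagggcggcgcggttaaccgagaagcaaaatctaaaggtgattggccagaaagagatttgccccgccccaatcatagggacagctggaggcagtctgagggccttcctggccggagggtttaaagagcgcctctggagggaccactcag
Ciart: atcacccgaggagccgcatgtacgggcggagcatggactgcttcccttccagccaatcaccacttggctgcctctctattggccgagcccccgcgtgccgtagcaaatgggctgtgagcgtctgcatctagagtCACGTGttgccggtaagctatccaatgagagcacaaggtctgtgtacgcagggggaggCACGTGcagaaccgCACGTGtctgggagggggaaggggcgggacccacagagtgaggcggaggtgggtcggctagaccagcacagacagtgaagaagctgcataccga
Ero1a: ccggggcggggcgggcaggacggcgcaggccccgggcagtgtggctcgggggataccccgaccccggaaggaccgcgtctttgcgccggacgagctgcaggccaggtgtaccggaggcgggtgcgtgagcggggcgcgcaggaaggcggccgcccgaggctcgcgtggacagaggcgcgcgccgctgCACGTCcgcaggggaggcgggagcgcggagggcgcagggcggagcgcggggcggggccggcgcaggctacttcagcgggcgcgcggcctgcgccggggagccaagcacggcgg

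The C/EBP-ATF element was searched as TGATGCAA and TGATGAAA on both strands. It occurred in the promoters of 3 of the 48 genes (Chac1, Bach2os and Gm11665), 6.25%, against 1.43% of the 10503 tested genes with a promoter and 2.16% of all 27025. The promoter of Trib3, which ATF4 also induces, did not hold it. The core of the hypoxia response element and E-box (TACGTG and its variant GACGTG, with CACGTG as the E-box proper) occurred in 15 of the 48 (31.2%), against 24.5% of the tested genes. The AP-1 site (TGACTCA) occurred in 1 of 48, the cAMP response element (TGACGTCA) in 2, the ETS site (CCGGAAGT) in 0 and the TATA box (TATAAA) in 2, against 4.59%, 3.57%, 9.02% and 8.75% of the tested genes. The GC box (GGGCGG) was in 31 of 48 (64.6%), against 68.8%. With 48 promoters these shares rest on few genes, and a match describes letters, not binding.

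Mir17hg, the host transcript of the miR-17-92 cluster (chromosome 14, 115278211 to 115284162, plus strand), was among the long non-coding RNAs. The RefSeq sequences of 1 arm of each of its 6 hairpins are shown because they are what this transcript is processed to, with the seed (bases 2 to 8) in capitals. Each was found once within the host gene. The arms of miR-17 and miR-20a share the seed AAAGUGC, and those of miR-19a and miR-19b share GUGCAAA. The mature miRNAs were not measured by these libraries.
mmu-miR-17-5p: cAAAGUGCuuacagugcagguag
mmu-miR-18a-5p: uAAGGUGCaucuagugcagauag
mmu-miR-19a-3p: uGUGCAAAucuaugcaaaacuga
mmu-miR-20a-5p: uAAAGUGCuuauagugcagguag
mmu-miR-19b-3p: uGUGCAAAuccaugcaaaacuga
mmu-miR-92a-3p: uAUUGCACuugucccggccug

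At day 0, 54 of the 60 genes were at least 2-fold higher after FGF8, where 7.61% of all genes tested were. At day 3, 44 were, against 4.11%, and at day 7, 31 were, against 1.09%. On all 3 days 23 of them were, against 0.181% (24 genes, the other 1 being set aside by the rule), and since the rule used these contrasts nothing is read from the counts. Genes with 3 counts or fewer in both libraries of a day are included, by values that rest on the pseudocount. Kit at D0 (0 against 1 count) and Unc13c at D7 (0 against 2) are such cases, and both are among the 23. The median difference was 1.93 (D0), 1.24 (D3) and 1.00 (D7) on the log2 scale, and all genes tested had medians of 0.043, 0.073 and 0.074. With counts under 3 set to 3, the medians of the 60 were 1.40, 1.16 and 1.00. The largest of the 3 values stood at D0 in 41 genes, at D3 in 11 and at D7 in 8, as the plot of the 3 differences of each gene shows.

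**Figure D1:**
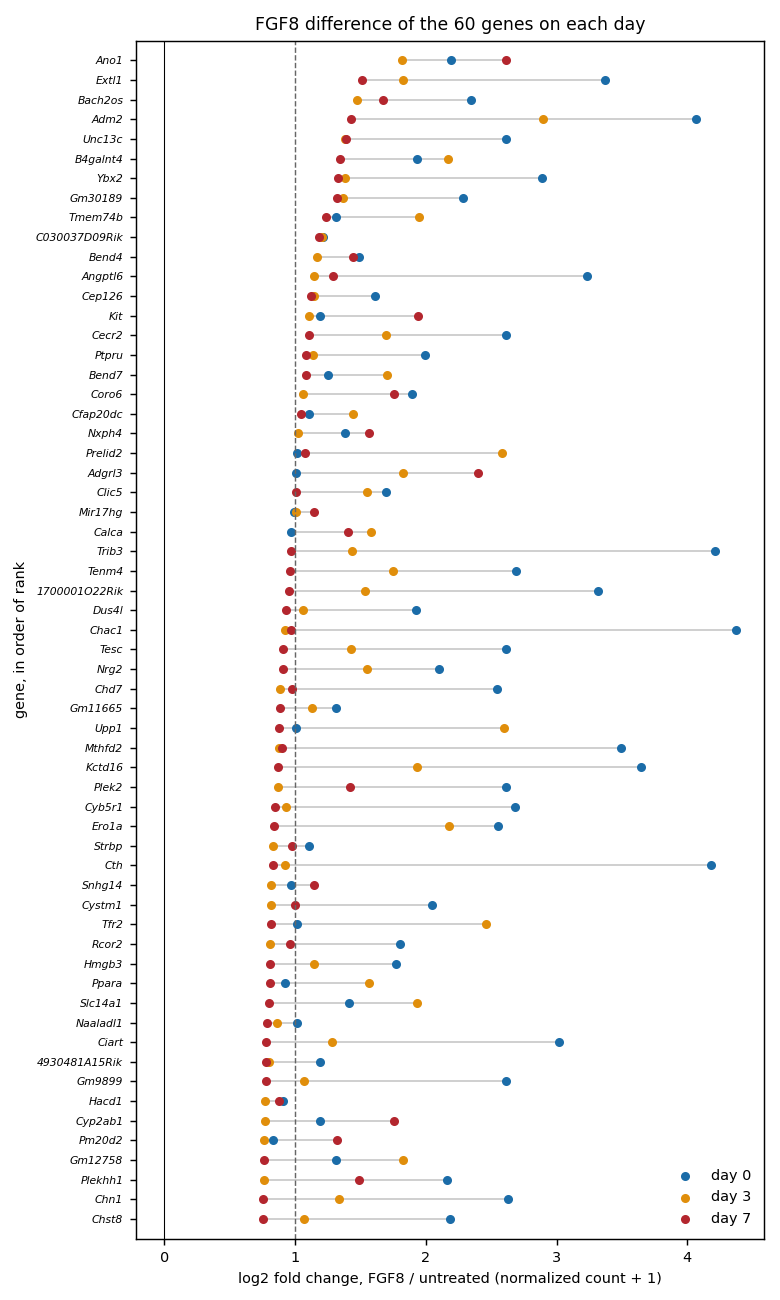
Log2 fold change of FGF8 over untreated normalized counts (pseudocount 1, x axis) for each of the 60 genes in order of rank (y axis), with 1 point for each day and a dashed line at 2-fold. The day 0 values spread from 0.83 to 4.37, and those of day 7 from 0.75 to 2.62.

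Few counts stood behind some of these values. The counting interval lay above 0 on all 3 days for 34 of the 60 genes, against 17.5% of all genes tested, and on the single days D0, D3 and D7 it did so for 40, 50 and 57 genes, against 37.9%, 41.7% and 42.0%. Of the 23 genes at least 2-fold higher on all 3 days, 13 had such an interval on each day and 10 did not. In 5 genes (Unc13c, Kit, Calca, 4930481A15Rik and Cyp2ab1) both libraries of at least 1 day held 3 counts or fewer, so that no fold is given there. The last genes inside the threshold were Plekhh1, Chn1 and Chst8 (smallest log2 fold changes 0.76, 0.75 and 0.75). The first outside were Gm13889, Ivns1abp and Gm10910, each at 0.74.

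Genes of the stress response and of amino acid metabolism had the highest median at day 0 of the 11 groups of roles. The medians of these 6 genes were 3.84 (D0), 1.18 (D3) and 0.89 (D7) on the log2 scale. Trib3, a pseudokinase that ATF4 induces, lies on chromosome 2, 152179337 to 152191958. In untreated and FGF8 cells it had 248 against 4613 at D0, 498 against 1345 at D3 and 2360.2 against 4625 at D7 (normalized counts, as throughout, with the untreated value first). Its FGF8 library of day 0 stood as high as that of day 7. The log2 fold change was 4.21 (3.99 to 4.45) at day 0, 1.43 at day 3 and 0.97 (0.91 to 1.03) at day 7.

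Chac1, which degrades glutathione (chromosome 2, 119180757 to 119184866), had 69.0 against 1449 at D0, 111 against 211 at D3 and 210.1 against 413 at D7. The FGF8 library of day 0 was the highest of the 6, and the difference of 21.0-fold there was close to 2-fold afterwards (1.90-fold and 1.97-fold). Mthfd2, a mitochondrial enzyme of folate one-carbon metabolism, had 1059 against 11929 at D0, 2814 against 5173 at D3 and 3253 against 6071 at D7. Its log2 fold changes of 3.49 (D0), 0.88 (D3) and 0.90 (D7) rest on at least 721 counts per library. Cth, the enzyme that releases cysteine from cystathionine, had 231 against 4204 at D0, 843 against 1597 at D3 and 435 against 776 at D7. In Mthfd2 and Cth, too, the FGF8 library of day 0 exceeded every other library.

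Ero1a, an oxidase of the endoplasmic reticulum that serves disulfide bond formation and is also hypoxia-responsive, had the highest mean level of the 60, at 1328 against 7774 at D0, 1984 against 8999.5 at D3 and 20158 against 36032 at D7. Its log2 fold change was 2.55 (2.45 to 2.65), 2.18 (2.11 to 2.26) and 0.84 (0.82 to 0.86). Unlike Chac1 and Cth it was highest at day 7 in both treatments. Upp1, a uridine phosphorylase that was placed in this group, differed most at day 3 (6.84-fold, interval 2.78 to 21.8), on 5 counts in the untreated library.

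**Figure D2:**
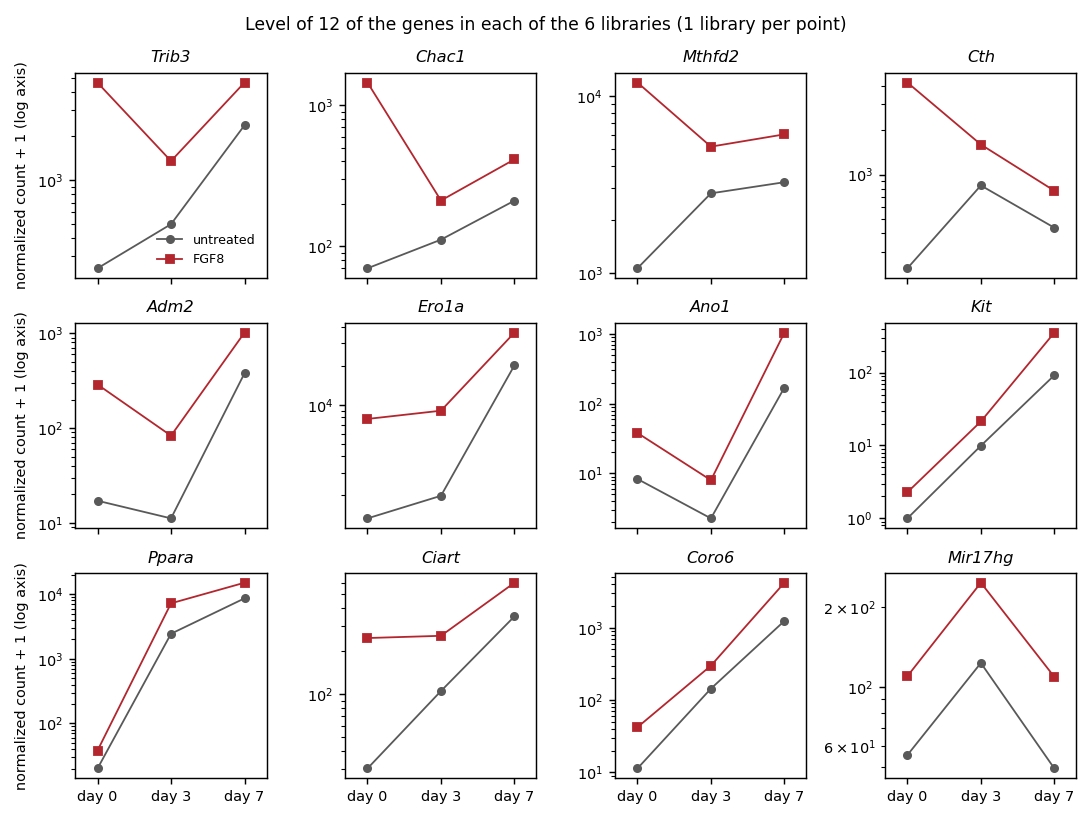
Normalized count + 1 (log axis) of 12 of the 60 genes at days 0, 3 and 7 in untreated (circles) and FGF8-pretreated (squares) cells, each point being 1 library. In Chac1 and Cth the FGF8 level is lower at days 3 and 7 than at day 0 while the untreated level is higher than at day 0, and in Ppara and Kit both lines climb together.

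The wider ATF4 target list of 20 genes, which includes Trib3, Chac1, Mthfd2 and Adm2, was higher throughout at day 0. All 20 were at least 2-fold higher there, at a median of 2.48, where 7.61% of all genes tested were. At day 3, 2 of the 20 passed 2-fold (median 0.57) and at day 7, 1 did (median 0.55), with 18 and 19 of the 20 above 0. None was 2-fold lower on any day, against 11.4%, 12.9% and 9.75% of all genes. Without the 4 genes shared with the 60, the 16 others had medians of 2.14, 0.51 and 0.43, and 16, 0 and 0 of them were at least 2-fold higher. Adm2 and Trib3 had the highest mean of the 3 values, and Nupr1 (1.82, 0.16 and -0.08) and Cebpb (1.02, 0.67 and 0.26) the lowest. Atf4 itself had log2 fold changes of 1.94, 0.59 and 0.57.

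The other lists put the 60 genes into context, and the comparison of the lists is plotted by day. Of 25 hypoxia-responsive genes, 12, 11 and 0 passed 2-fold upward on D0, D3 and D7, with medians of 1.00, 0.93 and 0.39, and 1 was 2-fold lower on each day. Egln3 (2.79, 2.28 and 0.65 on the 3 days) and Ankrd37 stood highest, and Adm (-2.37, -2.08 and -1.42) and P4ha2 (-0.37, -0.78 and -0.43) lowest. Of 16 FGF feedback and ERK target genes, 9, 1 and 0 were at least 2-fold higher and 1, 4 and 5 lower (medians 1.25, 0.22 and -0.31), with Spry4 (4.12, 0.50 and 0.06) and Etv1 (2.66, 1.78 and 0.24) at one end and Il17rd (-1.76, -1.41 and -1.88) and Egr1 (-0.47, -2.15 and -2.33) at the other. None of these 41 genes was among the 60. Only 60 of all 13256 genes tested are, so nothing is read from that.

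The 3 lists of the differentiated state had their highest medians at day 3. Medians were -0.21, 0.85 and 0.21 for 20 lipid storage genes (3, 6 and 0 at least 2-fold higher, and 5, 0 and 0 lower), 0.00, 0.98 and 0.13 for 17 measured thermogenic genes (4, 8 and 0 higher, and 4, 0 and 0 lower) and -0.47, 0.93 and 0.12 for 20 PPAR-alpha and fatty acid oxidation genes (1, 8 and 0 higher, and 4, 0 and 1 lower). Several of these genes had almost no counts at day 0. Without those that had 3 counts or fewer in both libraries of that day, the day 0 medians were -0.17 for 15 lipid storage genes (2 higher and 2 lower), 0.29 for 11 thermogenic genes (4 and 2) and -0.46 for 17 PPAR-alpha genes (1 and 2), and no gene was this low at days 3 and 7. Ppara, in the last list, was their only gene among the 60. By the mean of the 3 days, Plin1 (0 against 3 counts at day 0) and Aqp7 (1 against 5) stood highest in the lipid storage list and Gpd1 (3 against 0) and Lpl lowest, an order that rests on those counts. In the thermogenic list Ucp1 had 0 against 1037 counts at day 0 and log2 fold changes of 3.74 and 0.13 at days 3 and 7, and Cidea, at 0 counts in both libraries of day 0, had 3.61 and 0.69, with Acot11 and Dio2 lowest. In the last list, Fgf21 (2 against 64 counts at day 0) and Ppara stood highest. For 18 cholesterol genes the medians were -0.58, -0.013 and 0.0093 (1, 1 and 0 higher, and 4, 0 and 0 lower), with Idi1 and Insig1 the highest. For 16 proliferation genes they were 0.15, 0.64 and 0.30 (0, 1 and 0 higher, and 0 lower on each day), with Rrm2 and Bub1 against Cdc20 and Plk1.

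**Figure D3:**
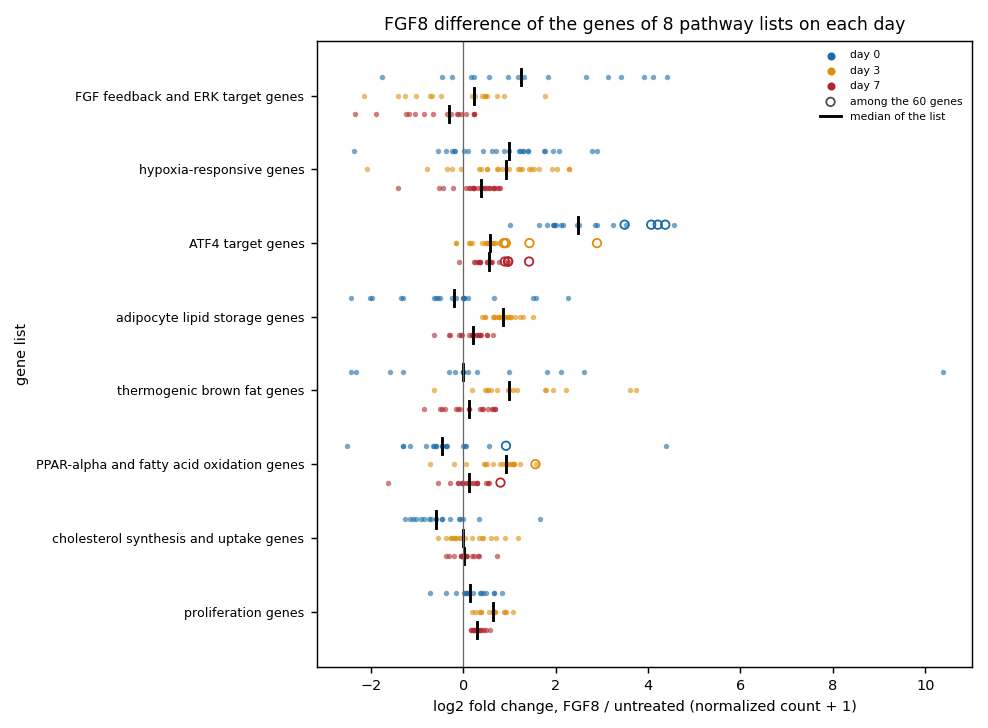
Log2 fold change of FGF8 over untreated normalized counts (pseudocount 1, x axis) for the measured genes of 8 pathway lists (y axis) on days 0, 3 and 7, with open circles for genes among the 60 and a bar at each list's median. Genes with 3 counts or fewer in both libraries of day 0 are included. The ATF4 targets lie to the right at day 0 (median 2.48) and near 0.5 later, and the lipid storage, thermogenic and PPAR-alpha lists have their highest medians at day 3.

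Of the 5 secreted ligands, Adm2 had the largest difference at days 0 and 3, and Nxph4 at day 7. Adm2 encodes a peptide hormone of the calcitonin family (chromosome 15, 89206923 to 89209380). It had 16.2 against 287 at D0, 10.2 against 82.1 at D3 and 377 against 1013 at D7, and its log2 fold changes were 4.07 (3.28 to 5.17), 2.89 (1.99 to 4.26) and 1.42 (1.28 to 1.58). In both treatments the D3 library was the lowest, in untreated cells on only 8 counts against 11 at D0. Calca, which encodes calcitonin and CGRP of the same hormone family, was sparse, with counts of 1 against 3 at D0, 5 against 30 at D3 and 39 against 92 at D7. Its interval lay above 0 at days 3 and 7 (0.35 to 3.45 and 0.88 to 2.01), and the 2 counts of day 0 were too few to show a difference.

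Angptl6, an angiopoietin-like secreted protein, had 30.8 against 298 at D0, 103 against 229 at D3 and 509 against 1245 at D7, which was 9.67-fold higher at day 0 and 2.45-fold at day 7. Nxph4, a neurexophilin, had 33.8 against 89.6 at D0, 14.0 against 29.5 at D3 and 92.3 against 275 at D7. Nrg2, an EGF family ligand of ERBB receptors, was 4.58-fold, 3.06-fold and 1.89-fold higher on the 3 days, at no more than 145 counts in a library. Among the ligands the difference was largest at day 0 in Adm2, Angptl6 and Nrg2 and at day 7 in Nxph4.

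Of the 5 surface receptors and adhesion proteins, Kit, the receptor of stem cell factor (chromosome 5, 75735576 to 75817404), had 0 against 1.28 at D0, 8.91 against 20.4 at D3 and 90.9 against 352 at D7. Both libraries of day 0 were at the floor of 3 counts or fewer, and at day 7 the FGF8 library held 433 counts against 128, a log2 fold change of 1.94 (1.67 to 2.25). Kit is also a mast cell marker. Of the 5 other mast cell markers, Mcpt4, Tpsb2, Cma1 and Fcer1a had at most 1 count in any library, and Cpa3 had between 0 and 57 counts, namely 57 (untreated) against 53 (FGF8) at D7. Adgrl3, an adhesion receptor of the latrophilin family, had 313 against 631 at D0, 28.0 against 102 at D3 and 20.6 against 113 at D7, and its difference was larger on each later day, at 1.01 (D0), 1.83 (D3) and 2.40 (D7).

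Tenm4, a teneurin, of the family that binds latrophilins, was 6.50-fold, 3.37-fold and 1.95-fold higher. Ptpru, a receptor tyrosine phosphatase, had 4.41 against 20.5 at D0, 106 against 233 at D3 and 190.2 against 405 at D7. Tfr2, the second transferrin receptor, differed most at day 3, with 33.1 against 187 normalized counts (5.64-fold, interval 3.77 to 8.80). The median of the 5 was 1.75 at day 3 and 1.09 at day 7, and none is given for day 0, where Kit was at the floor.

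Ano1 ranked first. It encodes a calcium-activated chloride channel (chromosome 7, 144142278 to 144305711) and had 7.34 against 37.1 at D0, 1.27 against 7.02 at D3 and 169.7 against 1045 at D7. The log2 fold change at day 7 was 2.62 (2.42 to 2.83), while at day 3 the 2 libraries held 1 and 10 counts, a ratio of 5.52-fold with an interval of 0.785 to 239 that included 1. Clic5, a chloride intracellular channel protein, was 3.49-fold, 3.31-fold and 2.01-fold higher. Slc14a1, a urea transporter, had 397 against 1059 at D0, 0 against 2.81 at D3 and 2.84 against 5.69 at D7, so that its value at days 3 and 7 rested on at most 7 counts in a library. Kctd16, an auxiliary subunit of GABA-B receptors, had 0 against 9 counts at day 0, with an interval from 1.72-fold upward, and 0 against 4 at day 3, where the interval reached down to 0.364-fold. It was 1.84-fold higher at day 7. Tesc, a calcium-binding protein, had 0 and 4 counts at day 0 and was 2.76-fold and 1.88-fold higher later.

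Coro6, a coronin that binds actin, had 10.3 against 41.0 at D0, 143 against 298 at D3 and 1241 against 4198 at D7, with narrow intervals at day 7 (log2 1.68 to 1.84). Cep126, a centrosomal protein, had 33.8 against 105 at D0, 36.9 against 82.8 at D3 and 54.7 against 120.3 at D7. Unc13c, which primes vesicles for release, had counts of 62 against 440 at D0, 1 against 7 at D3 and 0 against 2 at D7, so that a fold is given only for day 0 (6.19-fold, interval 4.73 to 8.21) and, with 1 against 7 counts, for day 3 (3.86-fold, interval 0.496 to 174). Plekhh1, a pleckstrin homology domain protein, had 13.2 against 62.7 at D0, 50.9 against 87.0 at D3 and 153 against 429 at D7. Chn1, which inactivates Rac, had 63.2 against 397 at D0, 30.5 against 78.6 at D3 and 31.9 against 54.5 at D7. Plek2, a pleckstrin, was 2.74-fold higher at day 7 and had 0 and 4 counts at day 0. All of these but Unc13c had a day 7 interval above 0.

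The following 8 genes act in chromatin or transcription. Ppara, the nuclear receptor of fatty acid oxidation (chromosome 15, 85618656 to 85687067), had 19.1 against 37.1 at D0, 2445 against 7228 at D3 and 8630.1 against 15075 at D7. Its log2 fold change was 0.92 (-0.03 to 2.03) at day 0, where it rested on 13 and 29 counts, 1.56 (1.49 to 1.63) at day 3 and 0.80 (0.77 to 0.84) at day 7. Its difference at day 3 stood beside the medians of 0.85 to 0.98 of the 3 lists of the differentiated state, and the part of differentiation in it was not tested. Ciart, a circadian repressor with 3 E-boxes in the promoter printed above, had 29.4 against 246 at D0, 104 against 255 at D3 and 349 against 599 at D7. It was 8.37-fold higher at day 0 and 1.72-fold at day 7.

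Cecr2, a bromodomain protein of a chromatin remodelling complex, had 0 against 5.12 at D0, 201 against 655 at D3 and 873 against 1881 at D7. Its 0 and 4 counts at day 0 did not show a difference, since the interval there reached down to 0.575-fold. Chd7, a chromatin remodeller, was 6.01-fold, 1.85-fold and 1.97-fold higher, Rcor2, a co-repressor, 3.51-fold, 1.76-fold and 1.95-fold, and Hmgb3, a high mobility group protein, 3.44-fold, 2.21-fold and 1.75-fold. These 3 had intervals above 0 on each day. Bend4 and Bend7, BEN domain proteins, were sparse. Bend4 had counts of 39 against 127 at D0, 3 against 14 at D3 and 5 against 14 at D7, and Bend7 had 4 against 12 at D0, 11 against 68 at D3 and 29 against 55 at D7.

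Ybx2, a Y-box protein that binds mRNA (chromosome 11, 69826474 to 69832432), had 0 against 6.40 at D0, 513 against 1337 at D3 and 1375 against 3458 at D7. At day 0 it had 0 and 5 counts, with an interval that reached down to 0.799-fold and so included 1, and at days 3 and 7 the log2 fold changes were 1.38 (1.23 to 1.54) and 1.33 (1.25 to 1.41). Strbp, a double-stranded RNA-binding protein, and Dus4l, a tRNA dihydrouridine synthase, had intervals above 0 on each day, at 2.15-fold, 1.78-fold and 1.97-fold and at 3.83-fold, 2.09-fold and 1.90-fold. Of the 3 glycan enzymes, Extl1, an exostosin-like glycosyltransferase, ranked second with 4.41 against 55.0 at D0, 31.8 against 115 at D3 and 282 against 805 at D7, and its log2 fold changes were 3.37 (2.00 to 5.98), 1.82 (1.24 to 2.52) and 1.51 (1.34 to 1.69). B4galnt4, an N-acetylgalactosaminyltransferase, had counts of 21 against 94 at D0, 0 against 5 at D3 and 5 against 13 at D7, and only its day 0 interval lay above 0. Chst8, a sulfotransferase, had 1.47 against 10.2 at D0, 10.2 against 22.5 at D3 and 31.9 against 54.5 at D7, on 1 and 8 counts at day 0.

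Among the other metabolic genes, Cyb5r1, a cytochrome b5 reductase, was 6.43-fold, 1.90-fold and 1.80-fold higher, and Hacd1, a dehydratase of very long fatty acid elongation, 1.89-fold, 1.71-fold and 1.83-fold. Prelid2, a PRELI domain protein, differed most at day 3 (6.48-fold, interval 3.16 to 15.4), on 8 counts in the untreated library. For the peptidases Pm20d2 and Naaladl1 the intervals of day 0 included 0 and those of days 3 and 7 did not. Cyp2ab1, a cytochrome P450, had at most 1 count in any library of days 0 and 3 and was 3.47-fold higher at day 7 (2.38 to 5.14).

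Of the genes of little known function, Tmem74b had 1.47 against 5.12 at D0, 5.09 against 22.5 at D3 and 46.1 against 109.7 at D7, and Cfap20dc had 198 against 429 at D0, 72.5 against 199 at D3 and 334 against 689 at D7. Cfap20dc had intervals above 0 on each day, and Tmem74b at days 3 and 7. Cystm1 was 4.17-fold, 1.78-fold and 2.00-fold higher. For 1700001O22Rik, with 0 against 7 counts at day 0, the interval ran from 1.26-fold upward, and the later differences were 3.06-fold and 1.95-fold.

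The 9 long non-coding RNAs had medians of 1.31 (D0), 1.13 (D3) and 1.14 (D7). The day 0 median is the value of Gm11665 and Gm12758, with an interval of -1.54 to 7.42, and 4930481A15Rik was at the floor that day. C030037D09Rik had log2 fold changes of 1.21 (D0), 1.21 (D3) and 1.18 (D7), from 4.41 against 11.5 at D0, 35.6 against 83.5 at D3 and 141 against 319 at D7. Its day 0 value rested on 3 and 9 counts, with an interval of -0.62 to 3.91. Mir17hg, whose miRNAs are printed above, had 54.3 against 109 at D0, 122 against 246 at D3 and 48.3 against 108 at D7, or 2.00-fold, 2.02-fold and 2.24-fold, each with an interval above 0 on the log2 scale. Gm30189 had 39.7 against 197 at D0, 66.2 against 172 at D3 and 76.7 against 193 at D7, and like Mir17hg it was above 100 normalized counts in all 3 FGF8 libraries. Snhg14, a transcript that runs antisense to Ube3a, was 2.03-fold, 1.79-fold and 2.24-fold higher. Gm11665 and Gm12758 each had 1 and 4 counts at day 0, and at day 7 they were 1.86-fold and 1.71-fold higher.

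Some of these RNAs overlap other genes. In 24 of the 60 genes an exon overlapped an exon of another listed gene, in 23 of them only on the opposite strand and in Mir17hg on its own strand with the miRNA genes, which had at most 1 count. The study names a stranded mRNA kit for its bulk libraries, but the strand setting of the counting is not given in the sources used here. Whether the reads of such pairs were kept apart is therefore not known. Gm9899 had 0 against 5.12 at D0, 443 against 929 at D3 and 606 against 1039.8 at D7. It overlaps Kcnk3, a potassium channel with log2 fold changes of 1.81 (on 2 and 10 counts), 1.07 and 0.13. Those of Gm9899 were 1.07 (D3) and 0.78 (D7), and its 0 and 4 counts at day 0 give no fold. C030037D09Rik overlaps Msi2, at 1.75, 0.90 and 0.57. Bach2os had 1.47 against 11.5 at D0, 12.7 against 37.2 at D3 and 27.7 against 90.2 at D7 and overlaps Bach2, a transcriptional repressor, which differed in the other direction at day 0 (-2.06, -0.11 and 1.11). 4930481A15Rik had 0 against 1.28 at D0, 96.7 against 169 at D3 and 215 against 369.9 at D7, beside 0.12, 0.05 and 0.12 for the overlapping Drap1. Ybx2 overlaps Slc2a4, the insulin-responsive glucose transporter, at 0.01, 1.22 and 0.51.

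The change with differentiation was not ranked on, but the filter on the mean bears on it, since 18 of the 60 genes had under 20 normalized counts in both day 0 libraries and could pass only through a later day. All 18 were among the 43 of the 60 whose level was 2-fold or more higher at day 7 than at day 0 in both the untreated and the FGF8 series, against 20.8% of all genes tested. Of the 42 other genes 25 were higher, against 16.6% of the 12484 genes with at least 20 normalized counts in a day 0 library. At least 2-fold lower in both series were 5 of the 60 (14.6% of all genes), all of them among the 42 (15.5%). From day 0 to day 3, 28 of the 60 were higher in both (17.7%) and 10 lower (11.7%), and of the 42, 12 were higher (13.6%) and 10 lower (12.4%). The median log2 change of the 60 to day 7 was 3.54 in untreated and 2.26 in FGF8-pretreated cells, the 18 included, and -0.013 and -0.0061 over all genes. Without the day 0 libraries, from day 3 to day 7, 37 of the 60 were higher in both series, against 5.21%, and 2 were lower, against 2.68%. The filter on the mean bears on this count as well. Cyp2ab1, for instance, had 0 and 0.70 normalized counts at day 3 and passed only through day 7. No share matched for that is given, so nothing is read from the count. The highest of the 6 libraries was FGF8 D7 for 46 genes, FGF8 D0 for 11 and FGF8 D3 for 3, and that it was an FGF8 library follows from the rule. With 1 library per condition none of this was tested. The lower Xist count after day 0 went along with these changes, and its part in them was not tested. Trib3, Mthfd2 and Cth went at least 2-fold in opposite directions in the 2 series to day 3 (0.581% of all genes did) and Chac1 to day 7 (0.536%). That count follows from the FGF8 differences the rule used, and nothing is read from it.

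The 5 largest increases to day 7, by the mean of both series, were those of Ybx2 (log2 10.43 in untreated and 8.87 in FGF8-pretreated cells), Cecr2 (9.77 and 8.26), Ppara (8.75 and 8.63), Gm9899 (9.25 and 7.41) and 4930481A15Rik (7.76 and 7.35). All but Ppara had 0 untreated counts at day 0, so their values depend on the pseudocount. The 5 lower genes were Unc13c (-6.52 and -7.75), Slc14a1 (-6.69 and -7.31), Bend4 (-3.68 and -3.72), Adgrl3 (-3.86 and -2.47) and B4galnt4 (-2.81 and -3.39). Their highest library was FGF8 D0, and by day 7 Unc13c and Slc14a1 had at most 7 counts in a library. The plot of the change in both series shows them apart from the 43.

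**Figure D4:**
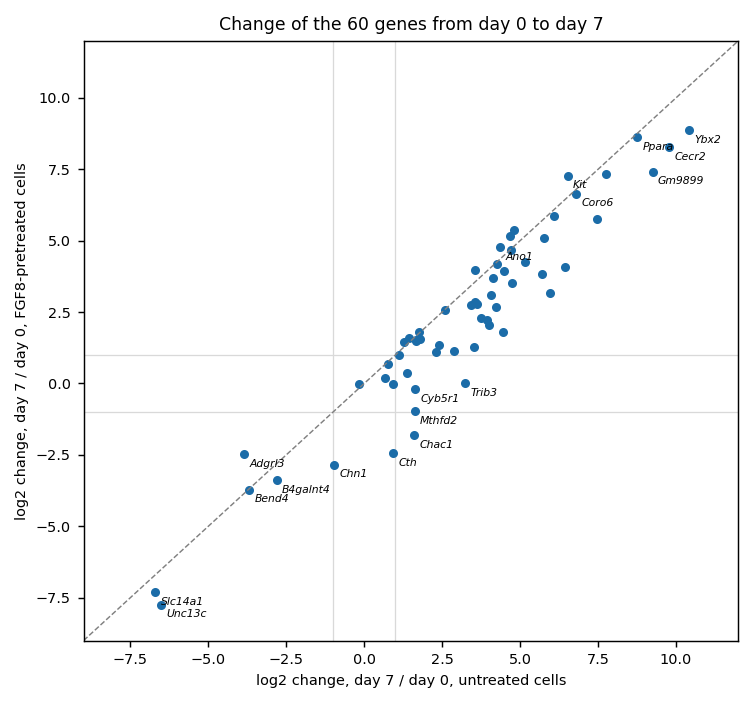
Log2 change from day 0 to day 7 (normalized count + 1) of the 60 genes in untreated (x axis) and FGF8-pretreated cells (y axis), with grey lines at 2-fold and a dashed line of equality. Most points lie in the upper right, 5 in the lower left, and Chac1 is in the lower right, higher at day 7 in untreated and lower in FGF8-pretreated cells.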

How the data were processed

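Bulk RNA was sequenced from 6 samples, 1 library for each of 2 treatments and 3 days. The authors trimmed the paired reads with TrimGalore, mapped them with HISAT2 to GRCm39 (mm39 in the labels), and used featureCounts to count reads per gene. They deposited raw counts without normalization. Versions, annotation, strand setting and the handling of multi-mapping reads are not given in the sources used here, so values of overlapping genes are uncertain. Groups came from the sample titles.

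Size factors (median of ratios) came from the 14407 genes counted in all 6 libraries. Fold changes are differences of log2(normalized count + 1), and no fold is given where both libraries held 3 counts or fewer or the untreated one held 0. Size factors, ranking and intervals were tested on simulated data. Alternatives used TMM factors (edgeR 4.0.16, R 4.3.3), total counts, size factors within a day, pseudocounts of 0.5 and 5, other filters and fold rules. Annotation came from GENCODE M39, promoters and miRNAs from RefSeq. Python 3.11.15, pandas 2.3.3 and scipy 1.17.1 were used.

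Every gene is named under its role. Values in all libraries are given for the 20 highest ranks, the last 3 inside the threshold, the 5 largest changes to day 7 in either direction and genes of the fixed lists, and others after their values were seen. The genes and lists were chosen with earlier results of these data known. Of the marker lists, those of preadipocytes, adipocytes, mast cells and sex-linked genes stand with the results and the others in the closing section. The lowest genes of 2 pathway lists are not reported here.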

Additional observations from a re-analysis of the deposited data

Results flagged for a closer look

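For 4 genes the change with differentiation went at least 2-fold in opposite directions in the 2 treatments. From day 0 to day 3, Trib3 changed by 1.00 on the log2 scale in untreated and -1.78 in FGF8-pretreated cells, Mthfd2 by 1.41 and -1.21, and Cth by 1.86 and -1.40. From day 0 to day 7, Chac1 changed by 1.59 and -1.81. Of all genes tested, 0.581% did so to day 3 and 0.536% to day 7. The difference was not tested, since each value compares 2 libraries, and it equals the difference of the FGF8 fold changes that chose the genes. In all 4 the FGF8 library of day 0 held more counts than the untreated one by over 10-fold (18.6-fold, 11.3-fold, 18.2-fold and 21.0-fold).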

How the results depend on the processing

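No paired analysis was possible because each group has 1 library, so that no 2 replicate numbers are shared. The 3 days were not used as pairs for a test of FGF8, since that contrast chose the genes. The number of the 60 genes at least 2-fold higher on all 3 days was 23, and 13 with a pseudocount of 5, 60 when 1.5-fold sufficed and 0 when 4-fold was asked. It stayed between 18 and 25 with other scalings and a pseudocount of 0.5. The rule found 38 of the 60 genes again with a mean of at least 100 and 37 with no filter on the mean. With the libraries of 1 day left out it found 29 (without D0), 30 (without D3) and 22 (without D7). Under the other scalings and pseudocounts it found between 47 and 59. Set against day 3 in place of day 0, which was chosen after seeing the data, 2 genes were lower at day 7 in place of 5. Without genes under 20 normalized counts in both day 0 libraries, also chosen then, 25 genes in place of 43 were higher at day 7 and 12 in place of 28 at day 3. With a 4-fold rule, chosen then too, 16 genes were higher and 6 lower at day 3 than at day 0. If the left-out genes are removed after the 60 are taken, 57 genes remain, without Plekhh1, Chn1 and Chst8, and the counts stay within 1.5 times. All 123 recomputed list medians stayed within the spread of their genes, though the cholesterol median at day 7 changed sign. It was 0.0093 as reported, -0.026 with total counts and -0.056 with size factors within a day. All 465 recomputed fold changes of the 31 genes with values in all libraries by rule stayed above 0. Since the rule chose the genes by these values, nothing is read from that. Of the 465, 6 lay outside the counting interval of the reported value. Counts under about 50 limit the day 0 values most.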

Other observations

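Markers of other cell types were measured beside the 60 genes. All 8 preadipocyte markers were at least 2-fold lower after FGF8 at days 3 and 7, where 12.9% and 9.75% of all genes tested were. At day 0 they went both ways. There 4 of 8 were at least 2-fold lower (11.4% of all genes), 3 of 8 were above 0, and 1, Lum at 1.25, was at least 2-fold higher (7.61%). The medians were -1.39, -1.81 and -2.63 on the 3 days, and Thy1 and Lum stood highest, Ly6a and Cd34 lowest. The 7 endothelial markers summed to between 204 and 1635 normalized counts in the untreated and between 37.4 and 76.8 in the FGF8 libraries, with Kdr and Tek the 2 that passed the filter on the mean. The 8 smooth muscle and pericyte markers summed to between 4357 and 7405 and between 973 and 3587. Macrophage markers summed to between 61.5 and 156, with 3 to 5 of 9 at 0 counts in a library, mesothelial and epithelial markers to between 46.3 and 415, and skeletal muscle markers to between 32.0 and 1259, with 4 to 6 of 9 at 0. Neuronal and Schwann cell markers summed to between 826 and 2409. Their part in the results was not tested.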
